A study of Mus musculus with 4 samples.

Results

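The enzymes that write, keep and remove DNA methylation, and those that methylate lysine 9 of histone H3 (H3K9), were examined in primary mouse liver sinusoidal endothelial cells (LSECs). The set held 10 genes of the 18373 in the expression table, namely *Dnmt1*, *Dnmt3a*, *Dnmt3b*, *Uhrf1*, *Tet1*, *Tet2*, *Tet3*, *Ehmt1*, *Ehmt2* and *Setdb1*. They were taken by gene symbol, and all 10 were found. LSECs of 8-week-old Balb/c mice were grown for 24 h and then given either control siRNA (NC, 2 libraries) or siRNA against the long noncoding RNA *Airn* (si*Airn*, 2 libraries) for 48 h, and RNA was taken at day 3. Apart from the siRNA the groups shared strain, age and culture. The labels call the replicates biological but do not say whether they came from separate animals, so p-values measure the spread between these libraries. The titles give both si*Airn* libraries the same siRNA, whereas the treatment text speaks of separate siRNAs, so the number of siRNAs used is uncertain. Reads per library summed to between 17308382 and 18371959 estimated counts.

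*Airn* itself had 7 and 3 counts in NC replicates 1 and 2, against 11 and 9 in the libraries labelled si*Airn*. It was thus not lower where the labels say it was silenced, and the ratio of si*Airn* to NC was 1.97 (95% exact binomial interval 0.880 to 4.71, counting error only). Groups are therefore called below by what the libraries are labelled. The direction of each difference below runs from libraries labelled NC to libraries labelled si*Airn*, not from more to less *Airn* RNA as counted here. The study reports efficient knockdown with the siRNAs that it took forward. The *Airn* counts in these libraries are too few to test that.

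DNA methylation in mammals is laid down on CpG sites by DNMT3A and DNMT3B and copied after replication by DNMT1, which UHRF1 recruits to newly made DNA. TET enzymes oxidise 5-methylcytosine, after which the oxidised base is diluted by replication or cut out by the glycosylase TDG. H3K9 methylation marks silent chromatin. EHMT1 and EHMT2 (GLP and G9a) work as a pair that places mono- and dimethylation, while SETDB1 places trimethylation, mainly at retroelements and at sites brought to it by KRAB zinc finger proteins with TRIM28. *Airn* has been tied to these enzymes because it recruits G9a to silence an imprinted neighbour in mouse placenta.

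The promoters of the 3 TET genes are shown because *Tet2* was the member whose difference between groups passed the test, and because CpG sites are what these enzymes act on. Each window runs from 250 bases before to 50 bases after the RefSeq transcription start (GRCm38.p6), 5′ to 3′ on the gene's own strand, with CpG sites in capitals. *Tet1* lies at chr10:62887275-62887574, *Tet2* at chr3:133544341-133544640 and *Tet3* at chr6:83441629-83441928, all on the minus strand.
Tet1: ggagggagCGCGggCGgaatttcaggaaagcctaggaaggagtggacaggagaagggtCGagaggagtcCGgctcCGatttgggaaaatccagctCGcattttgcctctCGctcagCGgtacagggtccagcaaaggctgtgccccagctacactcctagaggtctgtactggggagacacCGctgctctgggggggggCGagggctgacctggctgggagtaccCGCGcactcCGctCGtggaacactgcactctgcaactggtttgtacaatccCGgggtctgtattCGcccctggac
Tet2: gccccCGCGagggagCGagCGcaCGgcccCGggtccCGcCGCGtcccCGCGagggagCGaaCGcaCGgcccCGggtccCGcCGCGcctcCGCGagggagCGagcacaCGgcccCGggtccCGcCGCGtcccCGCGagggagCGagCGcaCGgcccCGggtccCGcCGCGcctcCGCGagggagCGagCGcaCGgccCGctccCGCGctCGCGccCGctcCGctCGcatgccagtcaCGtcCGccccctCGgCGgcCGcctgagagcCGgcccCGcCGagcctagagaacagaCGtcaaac
Tet3: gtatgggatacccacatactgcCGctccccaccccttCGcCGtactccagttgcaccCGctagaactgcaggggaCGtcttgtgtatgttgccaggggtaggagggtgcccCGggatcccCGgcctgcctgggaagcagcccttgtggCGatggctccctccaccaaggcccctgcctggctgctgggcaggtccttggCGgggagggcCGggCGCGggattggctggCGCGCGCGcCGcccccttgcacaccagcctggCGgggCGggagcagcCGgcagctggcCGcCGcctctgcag

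The *Tet2* window held 57 CpG sites, with a GC content of 81.3%. As many CpG sites or more were present in 0.15% of the 32851 windows of all genes, whose median was 7. The first part of the window was a tandem repeat, in which CCGCGAGGGAGC occurred 5 times at a spacing of 42 bases, between bases 5 and 184. The *Tet3* window held 22 CpG sites and the *Tet1* window 17, which 23.1% and 31.4% of all windows reached. Of the other members, *Dnmt3a* had the window richest in CpG, with 47 sites, and *Dnmt1* the poorest, with 2 sites in the most upstream of its 3 windows. Of the E2F motif only the forms TTTCCCGC and TTTGGCGC were searched, on both strands. A match to either was found in 1 of the 16 windows of the members, the most downstream one of *Dnmt1*, and in 1.56% of all windows. Other forms of the motif, such as TTTCGCGC, were not searched. A window without a match is therefore not shown to lack an E2F site. Methylation was not measured in these libraries.

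Levels are compared between genes in FPKM (fragments per kilobase of transcript and per unit of library depth), which allows for length. The H3K9 methyltransferases were the most abundant family. *Ehmt2* had 14.5 and 11.97 FPKM in NC, against 15.7 and 15.4 in si*Airn*. *Ehmt1* had 12.4 in both NC libraries and 12.9 and 12.2 in si*Airn*. The level of *Ehmt2* over *Ehmt1* was between 0.966 and 1.26 across the 4 libraries, so the partners of the GLP-G9a pair were expressed at similar levels and their order changed between libraries. *Setdb1* had 9.38 and 8.94 FPKM in NC, against 11 and 10.5 in si*Airn*, below both partners in every library.

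Among the DNA methyltransferases the maintenance enzyme led. *Dnmt1* had 10.4 and 9.59 FPKM in NC and 10.9 in both si*Airn* libraries. *Uhrf1*, its recruiting partner, had 5.50 and 5.68 in NC, against 6.39 and 7.10 in si*Airn*. *Dnmt1* was therefore 1.54 to 1.88 times as abundant as *Uhrf1* in each library. Of the de novo enzymes, *Dnmt3a* had 5.06 and 5.21 FPKM in NC, against 5.40 and 5.85 in si*Airn*. *Dnmt3b* had 1.23 and 1.31 in NC, against 1.29 and 1.05 in si*Airn*. *Dnmt3a* was thus between 3.98 and 5.57 times the level of *Dnmt3b*.

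*Tet3* was the most abundant TET gene, with 7.29 and 6.77 FPKM in NC, against 8.54 and 7.52 in si*Airn*. *Tet2* had 1.51 and 1.60 in NC, against 2.36 and 2.18 in si*Airn*. *Tet1* was nearly absent, at 0.01 and 0.02 FPKM in NC, against 0.06 and 0.05 in si*Airn*. By the mean of the 4 libraries the order of all 10 was *Ehmt2* (14.4), *Ehmt1* (12.5), *Dnmt1* (10.4), *Setdb1* (9.96), *Tet3* (7.53), *Uhrf1* (6.17), *Dnmt3a* (5.38), *Tet2* (1.91), *Dnmt3b* (1.22) and *Tet1* (0.035). The ranges over the 4 libraries overlapped between *Ehmt2* and *Ehmt1*, *Dnmt1* and *Setdb1*, *Tet3* and *Uhrf1*, and *Uhrf1* and *Dnmt3a*. Within each library, however, *Tet3* was above *Uhrf1* and *Uhrf1* above *Dnmt3a* in all 4, whereas the order of the other pairs changed between libraries. The median gene of the table had 4.28 FPKM, and 69.1% of all genes had a lower level than *Ehmt2*, against 41.8% for *Tet2* and 12.3% for *Tet1*.

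**Figure D1:**
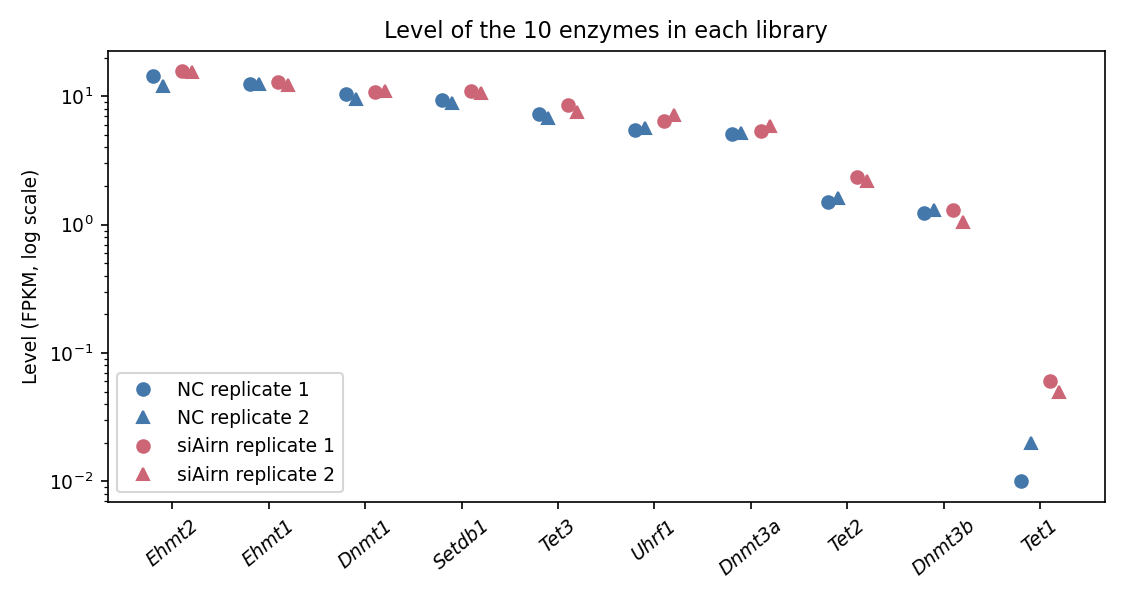
Level of each enzyme in FPKM (vertical axis, log scale) in the 4 libraries, ordered by mean level; circles are replicate 1 and triangles replicate 2. The H3K9 methyltransferases and *Dnmt1* sit near 10 FPKM, *Tet2* is higher in both si*Airn* libraries, and *Tet1* lies at or below 0.06 FPKM.

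The groups were then compared by counts, given as CPM (counts scaled to a common library size) after TMM scaling, a correction of library size. edgeR's quasi-likelihood test called 1 of the 9 members that were tested at an adjusted p under 0.05, and that was *Tet2*. Of all 13628 genes tested, 16.8% were called, 8.27% as higher and 8.56% as lower in si*Airn*. The share of members called was thus not above this background. *Tet1* was too low to be tested. Both si*Airn* libraries lay above both NC libraries for 7 of the 9 tested members and for *Tet1*, a pattern that 30.9% of all genes tested showed. Over the 9 members the median log2 fold change was 0.13, against 0.00 over all genes tested, and with allowance for GC content and length it was 0.00 over the members too.

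*Tet2* rose in si*Airn*. Its counts were 245 and 277 in NC, against 400 and 368 in si*Airn*, or 14.3 and 15.3 CPM against 22.1 and 20.8 CPM. The groups did not overlap, and the 2 libraries of each group lay close together. The log2 fold change was 0.54 (SE 0.10), a fold change of 1.45 (95% confidence interval 1.23 to 1.71), with an adjusted p of 0.0187 by edgeR's quasi-likelihood test. At the study's own cut-off, a fold change over 1.4 with an unadjusted p under 0.05, *Tet2* again was the 1 member to pass, among 9.96% of all genes tested. The annotation puts 0.255% of the exonic bases of *Tet2* under a gene on the opposite strand, and none of its 50-base windows is shared with another gene.

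The size of this change depended on how transcript properties were handled. Across all genes tested, the log2 fold change moved with transcript length, from a median of -0.16 in the 20% shortest to 0.19 in the 20% longest, and with GC content, from 0.15 in the 20% poorest to -0.14 in the 20% richest. The *Tet2* transcript is 9179 bases long with 45.4% GC. After a spline correction for both properties (the GC and length correction) the log2 fold change of *Tet2* was 0.26 and it was not called (adjusted p = 0.168 by edgeR), while 7.96% of all genes were. It was also not called without NC replicate 1 (0.48, adjusted p = 0.108 by edgeR) or without NC replicate 2 (0.58, adjusted p = 0.116 by edgeR), settings in which 40 and 0 of all genes were called and the lone NC library is assumed to vary like the si*Airn* libraries. By limma on log2(FPKM + 1) it was 0.36 (adjusted p = 0.078). In all 15 alternatives *Tet2* was higher in si*Airn*, by 0.26 to 0.58 on the log2 scale, and in 8 of them it was called.

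**Figure D2:**
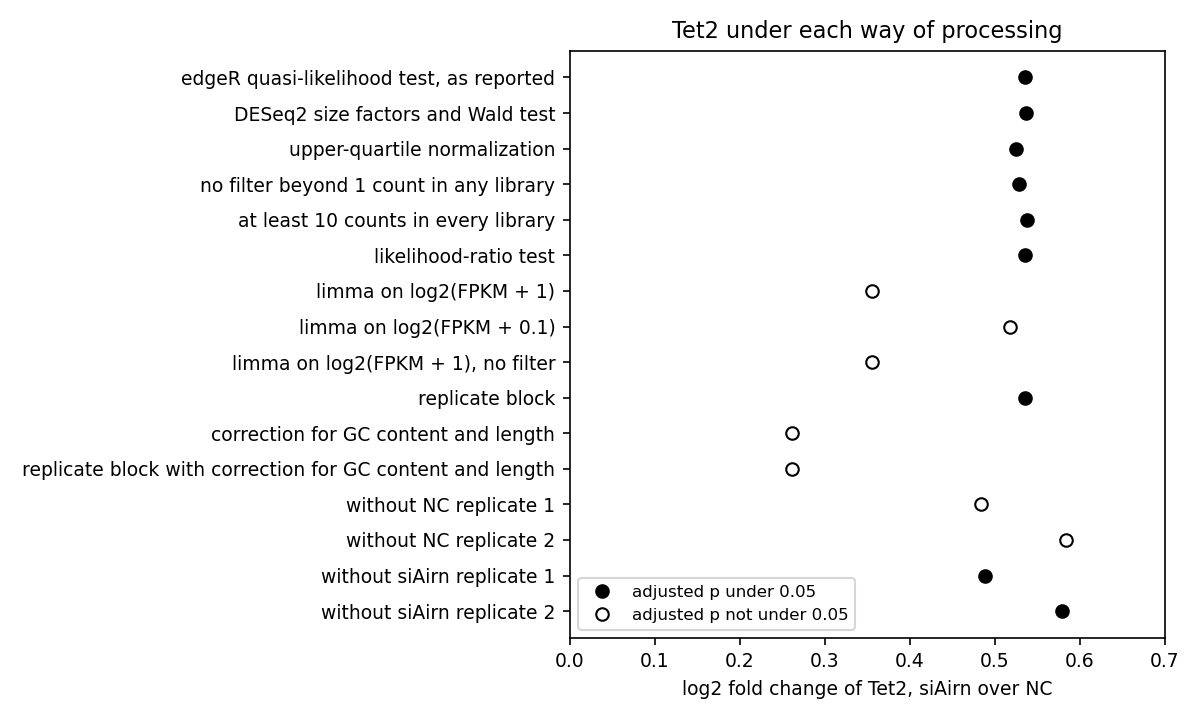
log2 fold change of *Tet2*, si*Airn* over NC (horizontal axis), under each way of processing (rows); filled points have an adjusted p under 0.05 and open points do not. All values lie above 0, and the smallest, 0.26, are those with the GC and length correction.

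The other TET genes did not pass. *Tet3* had 80.2 and 75.6 CPM in NC, against 92.5 and 82.9 in si*Airn*. Its groups did not overlap but came close, and the log2 fold change was 0.17 (SE 0.08), with an adjusted p of 0.170 by edgeR. *Tet3* came to 0.09 without si*Airn* replicate 1 and to 0.25 without si*Airn* replicate 2. Its interval ran from a fold change of 0.991 to 1.28, and after the GC and length correction the log2 fold change was -0.00. *Tet1* had 3 and 4 counts in NC against 8 and 11 in si*Airn*. The ratio of summed counts was 2.67 (95% exact binomial interval 1.08 to 7.53, counting error only), at levels from 0.175 to 0.622 CPM where 3 counts are worth 0.166 to 0.175 CPM.

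None of the DNA methyltransferases, nor *Uhrf1*, was called. *Uhrf1*, which reads hemimethylated CpG, had 18.5 and 19.3 CPM in NC, against 20.97 and 23.5 in si*Airn*. Its groups did not overlap, and its log2 fold change of 0.23 (SE 0.10) had an adjusted p of 0.160 by edgeR. *Uhrf1* came to 0.31 without si*Airn* replicate 1 and to 0.15 without si*Airn* replicate 2. Of its transcript, 18.9% of 50-base windows are shared with *Gm15953* or *Gm5648*, so part of its count could be divided among them. *Dnmt1* had 53.9 and 50.0 CPM in NC, against 55.8 and 56.6 in si*Airn*. This was a difference of 0.11 on the log2 scale (adjusted p = 0.310 by edgeR). *Dnmt3a* had 48.3 and 50.1 CPM against 50.6 and 55.6, also 0.11 (adjusted p = 0.366 by edgeR), which turned to -0.07 after the GC and length correction. Without si*Airn* replicate 1 it was 0.175, and without si*Airn* replicate 2 it was 0.04.

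*Dnmt3b* was 1 of the 2 members whose groups overlapped. It had 5.02 and 5.31 CPM in NC, against 5.03 and 4.18 in si*Airn*. This was a difference of -0.16 on the log2 scale (SE 0.19, adjusted p = 0.590 by edgeR). *Dnmt3b* came to -0.30 without si*Airn* replicate 1 and to -0.04 without si*Airn* replicate 2. With 74 to 96 counts per library its interval was the widest of the tested members, from a fold change of 0.650 to 1.23. It shares 11.5% of its 50-base windows with its close copy *Dnmt3c*.

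The H3K9 methyltransferases did not pass either. *Ehmt1* had 61.9 CPM in both NC libraries and 62.2 and 59.9 in si*Airn*. Its log2 fold change of -0.02 was the nearest to 0 of all members, and its interval covered fold changes from 0.886 to 1.10. *Ehmt2* had 55.8 and 45.8 CPM in NC, against 57.7 and 56.9 in si*Airn*. NC replicate 2 stood below the other 3 libraries, and the log2 fold change was 0.17 (SE 0.10, adjusted p = 0.269 by edgeR). Without that library it was 0.04, and without NC replicate 1 it was 0.32. After the GC and length correction *Ehmt2* came to 0.28 (adjusted p = 0.121 by edgeR). *Setdb1* had 51.2 and 45.1 CPM in NC, against 53.1 and 52.5 in si*Airn*, with the same library lowest and a log2 fold change of 0.13 (adjusted p = 0.303 by edgeR). Without NC replicate 2 it was 0.04, and without NC replicate 1 it was 0.22. After the GC and length correction *Setdb1* came to 0.00. Of the exonic bases of *Setdb1*, 4.73% lie under opposite-strand genes including *Cers2*.

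**Figure D3:**
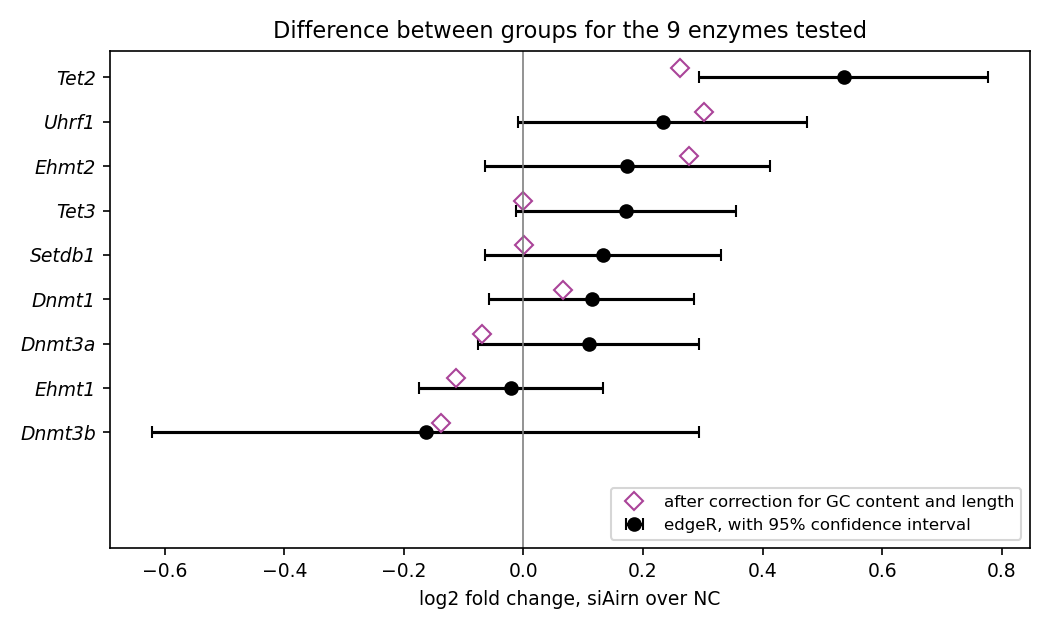
log2 fold change, si*Airn* over NC (horizontal axis), of the 9 tested enzymes (rows); filled points are edgeR estimates with 95% confidence intervals and diamonds are the estimates after the GC and length correction. Only the interval of *Tet2* (0.29 to 0.78) excludes 0, and its diamond lies at 0.26.

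The mix within each family was read as the share of summed FPKM, which allows for length. With summed counts, which do not, the shares in NC differed, for example 46.3% in place of 31.4% for *Dnmt3a* and 4.86% in place of 7.76% for *Dnmt3b*. *Tet2* made up 17.1% and 19.1% of TET FPKM in NC, against 21.5% and 22.4% in si*Airn*. *Tet3* made up 82.7% and 80.7% in NC, against 77.9% and 77.1% in si*Airn*, and *Tet1* stayed below 0.55% in every library. *Tet3* thus was 4.83 and 4.23 times the level of *Tet2* in NC and 3.62 and 3.45 times in si*Airn*, with no overlap between the groups. Summed over the family, TET FPKM was 8.81 and 8.39 in NC, against 10.96 and 9.75 in si*Airn*. With 2 libraries against 2 no exact permutation test can give a p below 0.33, so these shares are given without one.

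In the DNA methyltransferase family, *Dnmt1* held between 59.5% and 62.2% of the family's FPKM and *Dnmt3a* between 30.4% and 32.8%, with overlapping groups. *Dnmt3b* held 7.39% and 8.13% in NC, against 7.33% and 5.89% in si*Airn*, so its share was smaller in both si*Airn* libraries, by little in replicate 1. In the H3K9 family, *Ehmt1* held 34.3% and 37.2% in NC, against 32.6% and 32.0% in si*Airn*, whereas *Setdb1* held 25.9% and 26.8% against 27.8% and 27.7%. *Ehmt2* held 39.9% and 35.9% in NC, a range that reached the 39.7% of si*Airn* replicate 1. *Ehmt1* was thus a smaller share of summed FPKM, and *Setdb1* a larger one, in both si*Airn* libraries. By summed counts the groups of *Setdb1* came close, with 30.3% and 29.5% in NC, against 30.7% and 31.0% in si*Airn*. The GC and length correction was not applied to any family share. With it the log2 fold changes were -0.11 for *Ehmt1*, 0.28 for *Ehmt2* and 0.00 for *Setdb1*.

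**Figure D4:**
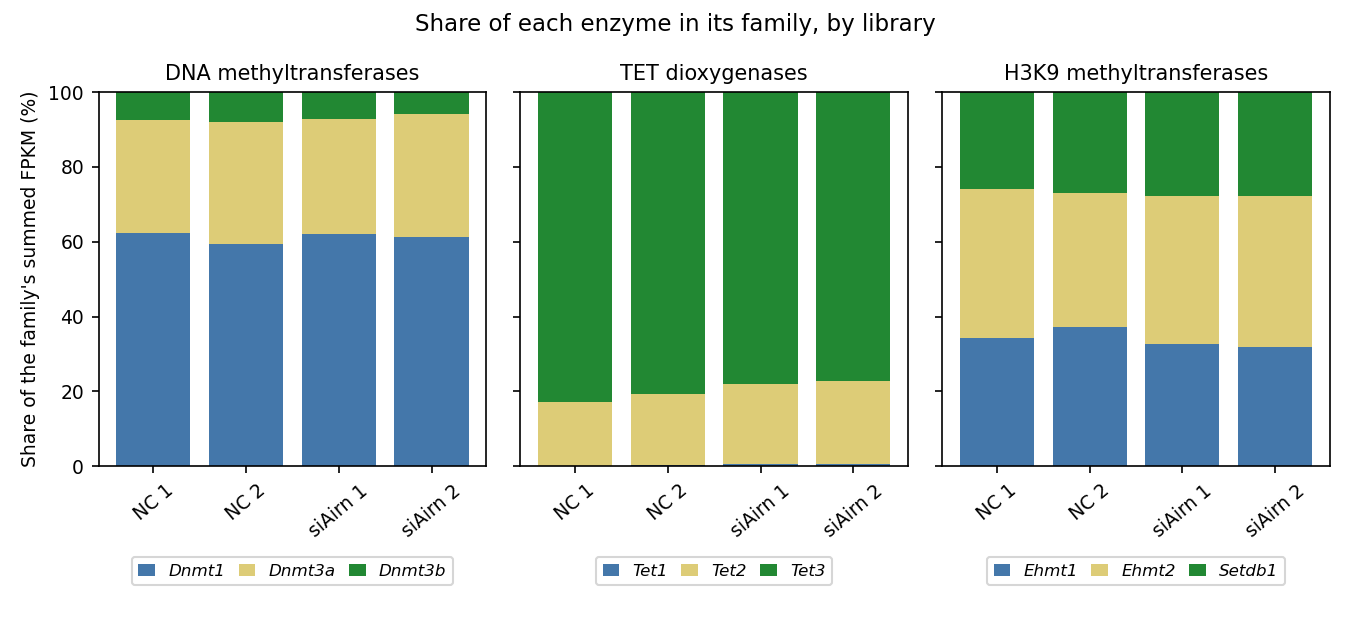
Share of each enzyme in the summed FPKM of its family (vertical axis, %) in each library (bars), for the DNA methyltransferases, the TET dioxygenases and the H3K9 methyltransferases. The *Tet2* segment is taller in both si*Airn* libraries (21.5% and 22.4%) than in both NC libraries (17.1% and 19.1%).

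The genes that work with these enzymes were counted next. Of 64 listed cofactors, readers, opposing enzymes and other H3K9 methyltransferases, 63 were in the table and 60 were tested. edgeR called 18 of the 60, with 15 higher and 3 lower in si*Airn*, and the median log2 fold change was 0.10. Of all genes tested, 16.8% were called, 8.27% as higher and 8.56% as lower. After the GC and length correction 4 were called, all higher (*Cdca7*, *Tdg*, *Ogt* and *Jmjd1c*), and the median was 0.05, where 7.96% of all genes were called, so the share of the lists was not above that of genes at large. Without NC replicate 1 the DNA methylation lists had 0 calls and the H3K9 lists 1, and without NC replicate 2 neither had any, as for genes at large.

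On the DNA methylation side 6 of 32 tested genes rose and 3 fell, beside 8.27% and 8.56% of all genes tested. *Hells*, a chromatin remodeller that DNA methylation needs, had 9.57 and 9.95 CPM in NC, against 14.3 and 14.4 in si*Airn*. This was a difference of 0.55 on the log2 scale (adjusted p = 0.0232 by edgeR). *Cdca7*, which activates HELLS, had 11.8 and 13.2 CPM against 18.3 and 17.2, a change of 0.50 (adjusted p = 0.0283 by edgeR). Both rose with no overlap between the groups, and after the correction *Hells* came to 0.28 and was not called while *Cdca7* came to 0.56 and was. DESeq2 called neither (adjusted p = 0.0771 and 0.0817). *Usp7*, which stabilises UHRF1 and DNMT1, rose too, whereas *Uhrf2*, *Pcna* and *Hdac2* did not pass and *Dnmt3l* was too low to test. Of the 50-base windows of *Pcna*, 31.8% are shared with a pseudogene.

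Of the 10 genes listed as readers of methylated DNA, 1 rose, 2 fell and 7 did not pass, where 8.27% of all genes tested rose and 8.56% fell. *Zbtb33* (Kaiso) had 22.2 and 21.9 CPM in NC, against 32.1 and 30.1 in si*Airn*. This was a difference of 0.50 on the log2 scale (adjusted p = 0.0152 by edgeR). *Mbd2*, a methyl-CpG binding subunit of the NuRD repressor, fell from 233.7 and 217.6 CPM to 191.5 and 167.4, a change of -0.33 (adjusted p = 0.0382 by edgeR). Its relative *Mbd3*, whose mammalian protein binds methylated CpG poorly if at all, fell from 168.5 and 175.6 CPM to 142.4 and 137.2, a change of -0.30 (adjusted p = 0.0237 by edgeR). None of these 3 was called after the GC and length correction, where *Mbd3* came to -0.07.

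Downstream and beside the TET enzymes, *Ogt*, the O-GlcNAc transferase that binds TET proteins, had 136.5 and 126.2 CPM in NC, against 189.9 and 178.9 in si*Airn*. It rose by 0.49 on the log2 scale (adjusted p = 0.00964 by edgeR), and by 0.31 after the correction. *Gadd45a*, which has been linked to active demethylation, had 94.2 and 105.5 CPM in NC, against 80.3 and 77.1 in si*Airn*. This was a difference of -0.34 on the log2 scale (adjusted p = 0.0278 by edgeR). It fell by this test, but came to -0.22 after the GC and length correction and was not called (adjusted p = 0.0871 by edgeR). An opposite-strand gene lies over 19.1% of its exonic bases. *Tdg*, named here after its values were seen because it removes what TET enzymes make, rose by 0.36 (adjusted p = 0.0148 by edgeR), but 66.3% of its 50-base windows are shared with other genes. *Idh1* and *Idh2*, which supply the TET cofactor 2-oxoglutarate, were lower in both si*Airn* libraries (-0.17 and -0.28) without passing.

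On the H3K9 side 9 of 28 tested genes rose and 0 fell at an adjusted p under 0.05 by edgeR, with 12 higher and 1 lower at an unadjusted p under 0.05. DESeq2 called 6 higher and 0 lower. Of all genes tested, 8.27% rose by edgeR, and 4631 of 13628 had an unadjusted p under 0.05 in either direction. DESeq2 called 1742 of all genes, with 8033 of 18014 left without an adjusted p. After the GC and length correction 1 of the 28 was called, *Jmjd1c*, beside 7.96% of all genes. *Jmjd1c*, a member of the H3K9 demethylase family KDM3, had 73.9 and 54.2 CPM in NC, against 129.4 and 126.4 in si*Airn*. Its log2 fold change of 1.00 (adjusted p = 0.00819 by edgeR) was the largest of the called genes in these lists, and it was 0.72 after the correction and still called. *Tasor*, a subunit of the HUSH complex that works with SETDB1, had 37.1 and 30.4 CPM in NC, against 47.9 and 52.6 in si*Airn*. This was a difference of 0.57 on the log2 scale (adjusted p = 0.0193 by edgeR) that became 0.26 and uncalled after the correction. Of the exonic bases of *Tasor*, 12.9% lie under opposite-strand *Ccdc66*, and 23.3% of its 50-base windows are shared with other genes. The others that rose were *Prdm2*, *Mecom*, *Zfp644*, *Cdyl*, *Pphln1*, *Cbx5* and *Kdm3b*, none of them called after the correction, where they ran from *Cbx5* at 0.01 and *Zfp644* at 0.07 to *Pphln1* at 0.26 and *Cdyl* at 0.36 (adjusted p = 0.0617 and 0.0522 by edgeR). *Trim28*, the corepressor that brings SETDB1 to its sites, had between 316.2 and 334.2 CPM in all 4 libraries with overlapping groups, and *Suv39h1*, a writer of H3K9 trimethylation, between 26.6 and 29.7.

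**Figure D5:**
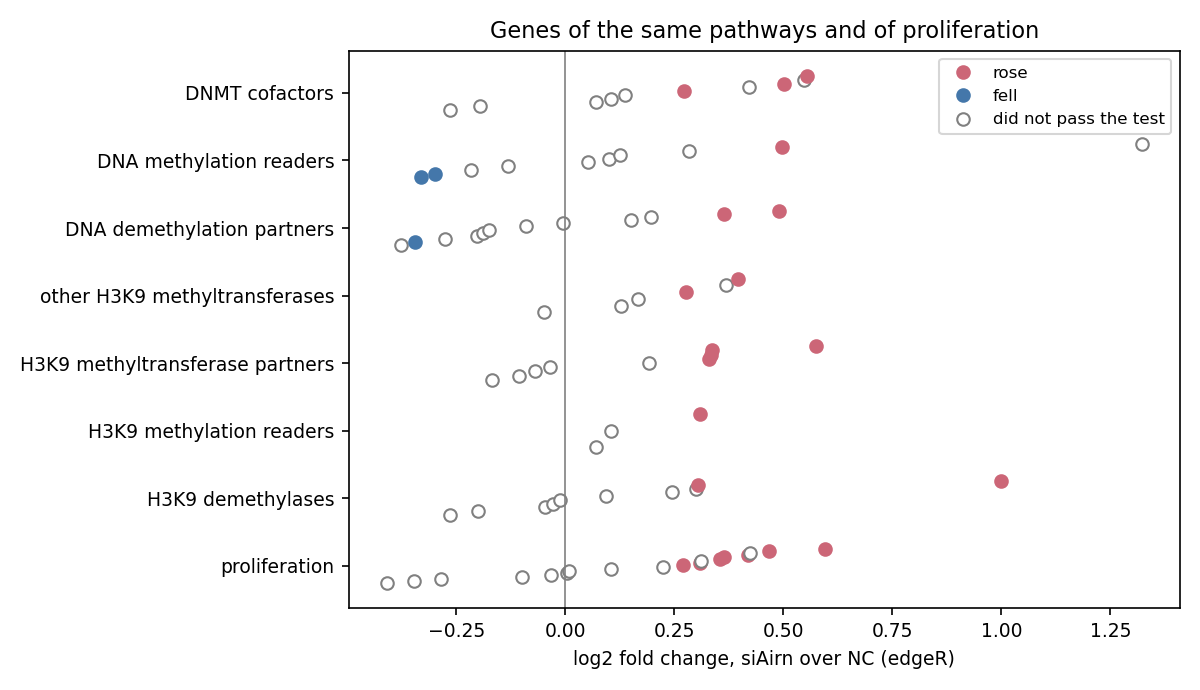
log2 fold change, si*Airn* over NC (horizontal axis), of each tested gene (points) in 7 lists of the same pathways and in a proliferation list (rows); red points rose, blue points fell and open points did not pass the edgeR test. Filled points lie mostly right of 0, the farthest being *Jmjd1c* at 1.00, and the 3 that fell are *Mbd2*, *Mbd3* and *Gadd45a*.

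Because *Dnmt1*, *Uhrf1* and *Hells* are transcribed with the replication programme, proliferation genes are given beside them. Of 18 tested, 7 rose and 0 fell by edgeR, with 8 higher and 0 lower at an unadjusted p under 0.05, while DESeq2 called 4 higher and 0 lower. Of all genes tested, 8.27% rose by edgeR, and 4631 of 13628 had an unadjusted p under 0.05 in either direction. DESeq2 called 1742 of all genes. The 7 that rose were *Rrm2* and all 6 subunits of the MCM replicative helicase. *Mcm4* was the largest, from 40.3 and 41.0 CPM in NC to 58.9 and 63.8 in si*Airn* (log2 fold change 0.60, adjusted p = 0.00751 by edgeR). The other MCM genes rose by 0.27 to 0.47, and all 6 were still called after the GC and length correction. *Mki67* at 0.42, *Top2a* at 0.31 and *Pcna* at 0.10 did not pass, and neither did the mitotic genes *Ccnb1* at 0.22 and *Cdk1* at 0.01. Others that did not pass were below 0, namely *Tk1* at -0.41, *Aurkb* at -0.35, *Ccnb2* at -0.29, *Tyms* at -0.10 and *Ccna2* at -0.03. Without either NC library no proliferation gene was called, and without si*Airn* replicate 2 the count was 2. The part of replication in the values of *Uhrf1*, *Dnmt1* and *Hells* was not tested.

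Germline genes that DNA methylation or H3K9 methylation keeps silent in body cells were low in both groups. Of 20 listed, 15 were in the table, 3 had enough counts to be tested and 0 were called by edgeR or DESeq2, with 0 at an unadjusted p under 0.05 by either. Their summed level was 4.09 and 4.97 CPM in NC, against 4.43 and 5.14 in si*Airn*, with overlapping groups. The genes with the most counts were *Brdt* at 0.719 to 1.71 CPM, *Sycp1* at 0.817 to 1.58, *Piwil2* at 0.885 to 1.36 and *Slc25a31* at 0.283 to 0.498. At the locus of *Airn*, *Igf2r*, the imprinted gene that *Airn* silences in cis, had 34.5 and 34.8 CPM in NC, against 41.9 and 50.5 in si*Airn*. It rose by 0.41 (adjusted p = 0.0379 by edgeR), but was 0.24 and uncalled after the GC and length correction.

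Counts of called cell type markers are read beside the 8.27% of all genes tested that rose and the 8.56% that fell, or the 7.96% called after the GC and length correction. All 15 LSEC and endothelial markers were detected in every library and 12 of them fell, led in level by *Eng* and *Cdh5*, and their summed level was 11934 and 11642 CPM in NC, against 8528 and 7629 in si*Airn*. Of 13 tested macrophage markers 7 fell, with sums of 252.4 and 319.9 CPM in NC, against 195.5 and 163.3 in si*Airn* and *Lyz2* and *Cd68* the highest, and 2 were called after the correction. Of the endothelial markers 13 were called after it, *Stab2* only then. Of 11 tested hepatocyte markers 2 rose (sums 655.5 to 830.6 CPM in NC and 914.1 to 1191 in si*Airn*, *Alb* and *Trf* highest), and of 11 stellate cell markers 4 rose (sums 1713 to 2075 and 1998 to 2587 CPM, *Tagln* and *Dcn* highest). After the correction 1 hepatocyte and 3 stellate cell markers were called. Lymphocyte and neutrophil markers summed to at most 6.05 CPM with *Mpo* at 0 in all libraries, cholangiocyte markers summed to between 17.6 and 23.8 CPM, and none of these 3 lists had a called gene, although *Krt19* was called after the GC and length correction (0.53). In bulk RNA fewer cells of a type and less RNA per cell cannot be told apart, and the part of cell mixture in the values of *Tet2* or any other member was not tested.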

How the data were processed

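The 4 RNA-seq libraries, 2 NC and 2 si*Airn*, were grouped by their labels. The authors deposited 1 table. Its estimated counts, deposited by the authors without normalization, were exactly whole as written, zeros included, for 76.5% to 76.8% of genes. Its other values carry no unit and were taken to be FPKM that the authors computed, since they scale with count, length and library total. Group means computed by the authors were not used. The submitters' processing notes name BWA, Bowtie2 and RSEM without versions and list hg19, a human build, so no coordinates were taken from the table. Use of strand in counting is not given in the sources used here.

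Counts were rounded and tested in R 4.3.3 with edgeR 4.0.16 (TMM factors 0.985 to 1.02, filterByExpr, quasi-likelihood test without covariate, Benjamini-Hochberg adjustment over the 13628 genes tested, two-sided, threshold 0.05). The common biological coefficient of variation was 0.0754. Intervals cover 95%, and those on summed counts are exact binomial and cover counting error only. Alternatives were DESeq2 1.42.0, upper-quartile scaling, other count filters, the likelihood-ratio test, limma 3.58.1 on log2(FPKM + 1) or log2(FPKM + 0.1), the replicate number as a block, splines on GC content and length from GENCODE M21 (12948 tested genes with a value), the study's cut-off, leaving out each library, and family shares from counts in place of FPKM. Fold changes by limma are on the log2(FPKM + pseudocount) scale and understate changes of low genes. The fitting script was tested on simulated data. Promoter windows are those of RefSeq, matched by symbol for all 10 members, and sequence overlaps are from GENCODE M21.

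The members, gene lists and tests were chosen with earlier results of these data known. The naming rule covered all members, *Airn*, the 6 largest increases and up to 6 largest decreases among called pathway genes, MCM genes, *Mki67*, *Top2a* and *Pcna*. It also covered the 4 germline genes with most counts and the 2 highest genes of the endothelial, macrophage, hepatocyte and stellate cell lists. Other genes were named after their values were seen. *Tasor* is listed in the table under its older symbol *Fam208a*. Listed genes without a row in the table were not analysed here.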

Additional observations from a re-analysis of the deposited data

How the results depend on the processing

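*Tet2* was higher in si*Airn* under every alternative tried, but was called in 8 of 15. *Ehmt1* changed sign by limma, to 0.0134 on log2(FPKM + 1) with or without the filter and 0.0144 on log2(FPKM + 0.1), and without si*Airn* replicate 2, to 0.00586 (range without each library in turn -0.048 to 0.00586). Corrected for GC content and length, *Dnmt3a* came to -0.070 and *Tet3* to -0.0007, and with the replicate block added to -0.0699 and -0.00255. *Dnmt1*, *Uhrf1*, *Ehmt2*, *Setdb1* and *Tet2* stayed above 0 and *Dnmt3b* below 0 in every alternative that gave them a value.

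Replicate numbers were shared between groups, but the labels mark no common animal or day, and deviations of same-numbered libraries correlated at 0.23 over 13628 genes with only 2 pairs. With the replicate block 4841 of all genes, 2 members (*Tet2* and *Tet3*, the latter with adjusted p = 0.0301 by edgeR), 14 genes of the DNA methylation lists and 14 of the H3K9 lists were called. With the replicate block and the correction for GC content and length together these counts were 4118, 2 (*Ehmt2* and *Uhrf1*), 15 and 11.

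Against 2294 of all genes, 1 member, 9 DNA methylation genes, 9 H3K9 genes and 7 proliferation genes called, the correction for GC content and length alone left 1031, 0, 3 and 1 in the first 4. Beside its 0 members, 3632 of all genes had an unadjusted p under 0.05. The study's cut-off left 1358 of all genes, 5, 2 and 1 of the lists. By limma with a filter 0 members were called and 4 H3K9 genes, with either pseudocount, beside 1743 or 1747 of all 11667 genes tested. By limma without a filter 0 genes were called in any list or in the whole table, with 4418 genes at an unadjusted p under 0.05. DESeq2 called 4 proliferation genes, beside 1742 of all genes. Leaving out 1 library gave 0 to 2410 of all genes, 0 to 1 members, 0 to 8 DNA methylation genes, 0 to 6 H3K9 genes and 0 to 5 proliferation genes. The lowest counts came without NC replicate 1 (40 of all genes) or NC replicate 2 (0, with 3106 at an unadjusted p under 0.05). The causes of these differences were not tested. Family shares in NC from summed counts in place of FPKM moved by more than 1 SD for 8 of 9 members. *Tet1*, *Airn* and most of the germline genes had too few counts for the test.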
